A study of Mus musculus with 16 samples.

Results

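The melanocyte lineage genes measured here are 9 genes that mark or act on pigment cells: Dct, Tyrp1, Tyr, Pmel, Mlana, Mitf, Sox10, Kit and Kitl. They were chosen by name, with earlier results of these data known, so counts of members set beside shares of all genes are descriptions. Every probe set of the array that the annotation assigns to one of these symbols alone was read, which gave 20 probe sets of 45101. All 9 genes, of 18194 on the array, passed the filter on low values and were tested among 14286 genes. They are described as a measure of melanocytes in cells sorted from mouse tail epidermis, in which melanocytes were not the cells sought.

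The study followed basal cell carcinoma formation driven by SmoM2, an activated form of the hedgehog signal transducer Smoothened that tamoxifen switches on, together with YFP, in cells expressing a Cre driver. All mice were of mixed background, and all groups carried the Rosa-SmoM2-YFP allele. Sorted basal cells of the interfollicular epidermis (IFE) with SmoM2 and β-catenin loss came from K14CREER/Rosa-SmoM2-YFP mice with floxed β-catenin at 4 weeks (n = 2). Bulge and outer root sheath cells came from K19CREERT2/Rosa-SmoM2-YFP mice, with 1 array of SmoM2-positive cells at 4 weeks and 1 labelled as an untreated control. The IFE time course, from K14CREER/Rosa-SmoM2-YFP mice, ran over 3 arrays of untreated controls and over SmoM2-positive cells after tamoxifen, with 1 array at 3 days, 3 each at 1 and 4 weeks and 2 at 10 weeks. The labels name sorting for SmoM2 in the treated groups and not in the IFE controls, so tamoxifen, time, the SmoM2 sort and SmoM2 itself cannot be told apart in a comparison with controls. β-catenin loss was always combined with SmoM2. The labels give neither the animals' age nor whether a sample was 1 mouse or a pool, so the spread behind each p-value is that between these samples and may be technical.

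Melanocytes arise from the neural crest, settle in the skin and hair follicles, and make melanin in melanosomes that they pass to keratinocytes. Mouse tail skin is unusual among haired mouse skin in keeping melanocytes in the epidermis between follicles, mainly in the scales. Sox10 and Mitf are transcription factors of the lineage, and Mitf binds M-boxes in the promoters of pigment genes. Tyr, Tyrp1 and Dct encode the enzymes of melanin synthesis, Pmel the protein of melanosome fibrils and Mlana a melanosome membrane protein. Kit is the receptor tyrosine kinase on melanocytes for Kit ligand, which Kitl encodes and keratinocytes make.

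The promoters of the 3 enzyme genes are shown because they share a stretch around the M-box core. The sequences are from RefSeq on build GRCm38.p6 and cover 250 bases before to 50 bases after the gene's start, 5′ to 3′ on the gene's strand. Capitals mark each match to the M-box core TCATGTG, on either strand, with the bases around it that the 3 genes have in common (GTCATGTGCT).
Tyr: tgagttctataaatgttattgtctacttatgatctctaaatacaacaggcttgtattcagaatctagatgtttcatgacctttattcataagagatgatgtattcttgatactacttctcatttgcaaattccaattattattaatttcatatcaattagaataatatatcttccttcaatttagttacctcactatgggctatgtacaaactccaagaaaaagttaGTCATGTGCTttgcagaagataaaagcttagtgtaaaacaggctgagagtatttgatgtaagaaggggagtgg
Tyrp1: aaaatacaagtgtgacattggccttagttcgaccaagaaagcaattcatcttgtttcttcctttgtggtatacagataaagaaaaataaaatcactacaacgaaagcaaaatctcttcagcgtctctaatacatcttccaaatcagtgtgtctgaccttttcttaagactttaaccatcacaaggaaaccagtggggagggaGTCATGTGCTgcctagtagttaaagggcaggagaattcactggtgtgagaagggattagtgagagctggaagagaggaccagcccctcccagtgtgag
Dct: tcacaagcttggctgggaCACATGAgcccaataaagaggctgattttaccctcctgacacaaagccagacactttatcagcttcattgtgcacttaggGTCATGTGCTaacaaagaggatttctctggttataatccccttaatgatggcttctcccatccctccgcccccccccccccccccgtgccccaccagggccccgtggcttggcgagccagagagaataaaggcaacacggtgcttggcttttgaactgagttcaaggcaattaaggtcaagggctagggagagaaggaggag

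The windows lie at chr7:87493463-87493762 on the minus strand for Tyr, chr4:80833963-80834262 on the plus strand for Tyrp1 and chr14:118052197-118052496 on the minus strand for Dct. The shared 10-base stretch starts 23 bases before the start of Tyr, 48 bases before that of Tyrp1 and 152 bases before that of Dct. It was chosen as the longest stretch in common around the core, and 61 of 32851 RefSeq mouse promoters (0.186%) held it on either strand. The core TCATGTG alone was in 3.77% of all promoters, and the Dct window held it again on the antisense strand, 232 bases before the start. The shorter E-box CATGTG, which is part of the core, was in 14.2% of all promoters, the E-box CACGTG in 7.15% and the Sox core ACAAT in 31.0%. Dct and Tyr each held 1 ACAAT, and none of the 3 held CACGTG. Of the other members, Mitf, Kit and Kitl matched the promoter table, and none of their windows held TCATGTG. Pmel, Mlana and Sox10 were not matched. Of 24 other pigment cell genes with a promoter, 5 held the core: Slc24a5, Slc7a11, Hps1, Mc1r and Trpm1. A match in letters is a description and not a measured site.

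Array medians lay between 5.38 and 5.53 on the log2 scale, and the 40th percentile of an array, used as the line for low signal, between 4.88 and 5.01. Gli1 and Ptch1, direct hedgehog targets, checked the labels. Gli1 read 5.30 to 5.73 in IFE controls, 7.28 at 3 days, 8.50 to 10.16 at 1 week, 9.95 to 10.83 at 4 weeks and 9.70 and 9.86 at 10 weeks. In the array labelled bulge control Gli1 was 9.89 and Ptch1 12.57, close to the bulge SmoM2 values of 9.96 and 12.78. Hhip, another hedgehog target, read 7.67 there and 10.64 in bulge SmoM2 cells. The source label of the former array names SmoM2-positive cells, and that array is therefore called the array labelled bulge control. With β-catenin loss Gli1 was 7.22 in replicate 1 and 9.56 in replicate 2. Ctnnb1, which encodes β-catenin, read 12.76 and 12.93 with β-catenin loss, against 13.21 to 13.65 in SmoM2 cells at 4 weeks (difference −0.52 ± 0.21, limma adjusted p = 0.215). Whether its probes fall inside the floxed exons was not examined, so this is no check of the deletion. Krt5 and Krt14, keratins of basal keratinocytes, read at least 12.83 in every array.

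The melanin synthesis genes had their highest group mean in untreated IFE and their lowest in SmoM2 IFE with β-catenin loss. Dct, dopachrome tautomerase, read 5.46 and 5.93 with β-catenin loss, 7.34 in bulge SmoM2 cells and 6.57 in the array labelled bulge control. In the IFE time course Dct read 8.58, 11.27 and 9.81 in controls, 9.09 at 3 days, 10.00, 7.58 and 8.10 at 1 week, 7.78, 7.21 and 9.52 at 4 weeks, and 5.84 and 7.91 at 10 weeks. Every 10-week and β-catenin loss array was below every control, while at 1 and 4 weeks the groups overlapped. Tyrp1, the tyrosinase-related enzyme that acts after Dct in eumelanin synthesis, read 4.43 and 4.99 with β-catenin loss, 6.14 in bulge SmoM2 cells and 5.69 in the array labelled bulge control. Its time course values were 8.23, 10.52 and 8.89 in controls, 8.30 at 3 days, 9.57, 6.44 and 7.22 at 1 week, 6.11, 5.14 and 8.64 at 4 weeks, and 5.15 and 7.03 at 10 weeks. The same arrays were high and low as for Dct: control replicate 2, 1-week replicate 1 and 4-week replicate 3 stood above the others of their groups.

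Tyr, tyrosinase, catalyses the first and rate-limiting steps of melanin synthesis. It read 4.71 and 4.85 with β-catenin loss, 5.15 in bulge SmoM2 cells and 4.82 in the array labelled bulge control. Over time Tyr read 5.94, 8.56 and 6.87 in controls, 6.82 at 3 days, 6.86, 5.47 and 5.72 at 1 week, 4.90, 5.07 and 6.68 at 4 weeks, and 4.43 and 5.16 at 10 weeks. Tyr was above the low signal line in 12 of 16 arrays, so its lowest values lie near the floor and its differences may be understated there. Its means of 4.78 with β-catenin loss and 4.80 at 10 weeks, and 4.82 in the array labelled bulge control, lay close together. The other Tyr probe sets had their lowest group mean at 10 weeks or in the array labelled bulge control. The melanosome structure genes also had their highest group mean in controls and their lowest with β-catenin loss. Pmel read 6.43 and 6.64 with β-catenin loss, 6.85 in bulge SmoM2 cells and 6.78 in the array labelled bulge control. Its time course values were 8.61, 10.85 and 8.91 in controls, 8.50 at 3 days, 9.82, 7.44 and 8.08 at 1 week, 7.45, 7.40 and 9.02 at 4 weeks, and 6.49 and 7.54 at 10 weeks. Pmel was above the line in all 16 arrays and its 10-week and control values did not overlap. Mlana read 4.67 in both β-catenin loss arrays, 4.90 in bulge SmoM2 cells and 4.76 in the array labelled bulge control. Over time it read 5.68, 8.55 and 6.84 in controls, 6.87 at 3 days, 6.29, 4.93 and 5.74 at 1 week, 4.57, 5.06 and 6.62 at 4 weeks, and 4.79 and 5.31 at 10 weeks. Mlana was above the line in 9 of 16 arrays.

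**Figure D1:**
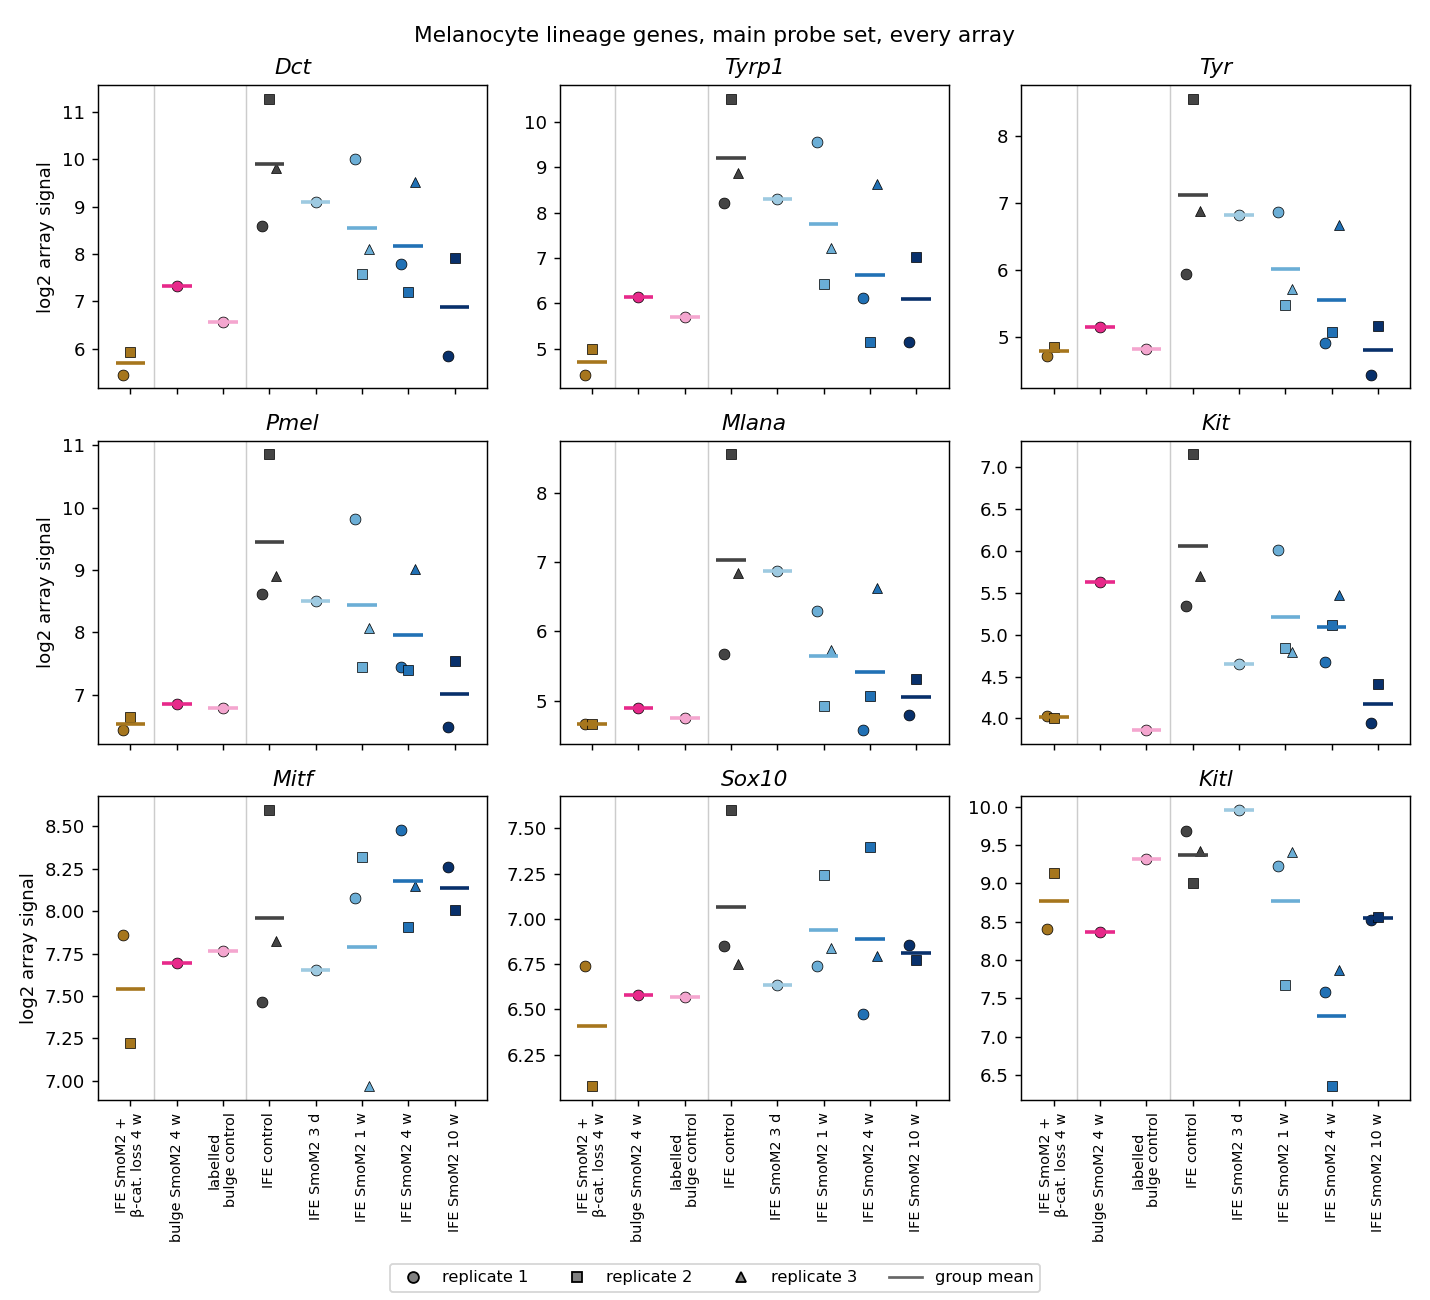
Log2 array signal (vertical axis) of the main probe set of the 9 genes in each of the 16 arrays, by group. Symbols mark the replicate number and lines the group mean. Dct, Tyrp1, Tyr, Pmel, Mlana and Kit have their highest point in control replicate 2 and low points at 10 weeks and with β-catenin loss, while Mitf and Sox10 span a narrower range and Kitl is lowest at 4 weeks.

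The lineage transcription factors varied less than the pigment genes. Mitf, main probe set, read 7.86 and 7.22 with β-catenin loss, 7.69 in bulge SmoM2 cells and 7.77 in the array labelled bulge control. Its time course values were 7.47, 8.60 and 7.83 in controls, 7.65 at 3 days, 8.08, 8.32 and 6.97 at 1 week, 8.48, 7.91 and 8.15 at 4 weeks, and 8.26 and 8.01 at 10 weeks. Each SmoM2 group of the time course overlapped with the controls. Mitf is also transcribed in cells other than melanocytes, from several promoters. Sox10 read 6.74 and 6.08 with β-catenin loss, 6.58 in bulge SmoM2 cells and 6.57 in the array labelled bulge control. Over time Sox10 read 6.85, 7.60 and 6.75 in controls, 6.64 at 3 days, 6.74, 7.24 and 6.84 at 1 week, 6.47, 7.40 and 6.80 at 4 weeks, and 6.85 and 6.77 at 10 weeks. Its whole range was 1.52 on the log2 scale, against 5.82 for Dct.

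Kit, the receptor, was a dim signal, above the low signal line in 7 of 16 arrays. Its highest group mean was in controls, like that of the pigment genes, but bulge SmoM2 cells came next and the 3-day array lay below the 1-week and 4-week means. It read 4.03 and 4.00 with β-catenin loss, 5.63 in bulge SmoM2 cells and 3.86 in the array labelled bulge control. Over time Kit read 5.34, 7.16 and 5.70 in controls, 4.66 at 3 days, 6.02, 4.84 and 4.79 at 1 week, 4.67, 5.11 and 5.48 at 4 weeks, and 3.94 and 4.41 at 10 weeks. Kitl, the ligand, had another course in its main probe set, with its lowest values at 4 weeks. Kitl read 8.41 and 9.14 with β-catenin loss, 8.36 in bulge SmoM2 cells and 9.32 in the array labelled bulge control. In the time course it read 9.68, 9.0 and 9.42 in controls, 9.95 at 3 days, 9.23, 7.67 and 9.41 at 1 week, 7.59, 6.36 and 7.87 at 4 weeks, and 8.52 and 8.56 at 10 weeks. In this probe set all 4-week arrays were below all controls, and the 10-week arrays lay between these groups.

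For genes with several probe sets, the one of highest mean is the main one above. The other 2 Tyrp1 and the other 2 Tyr probe sets differed from control in the same direction as the main one at 3 days, 1 week, 4 weeks, 10 weeks and with β-catenin loss, with 10-week differences of −3.29 to −2.59 over the 3 Tyrp1 probe sets and −2.33 to −1.33 over the 3 of Tyr. The second Kit probe set was above the low signal line in 0 of 16 arrays, and its 10-week difference was −0.21. The second Mitf probe set was above the line in 2 arrays, and at 3 days it differed by 0.31, against −0.31 in the main one. The 3 Sox10 probe sets were all lower at 10 weeks, by −0.25 to −0.19. The dimmest of them was above the line in 5 arrays and had a range of 0.50. The 4 Kitl probe sets were all lower at 4 weeks, by −2.09 to −0.42, so the size of the Kitl difference depended on the probe set. In each Kitl probe set other than the main one, 4-week and control values overlapped. At 10 weeks against 4 weeks 1 of the 4 was lower, so the later course depended on the probe set too.

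Differences from IFE control were tested with limma over the 14 IFE arrays, with p-values adjusted over 14286 genes by Benjamini-Hochberg and a threshold of 0.05. The comparisons with control share its 3 arrays, so their differences are not independent of each other. In bulk samples such as these, fewer melanocytes and less RNA of these genes per melanocyte cannot be told apart.

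At 3 days after tamoxifen, 0 of 9 genes passed, against a background of 0% of all genes, and 1 gene, Kit, had an unadjusted p under 0.05 (222 of all genes did). Kit was lower by −1.41 ± 0.64 (SE), at 4.66 in the single 3-day array and 6.07 ± 0.96 (SD, n = 3) in controls. The pigment genes differed by −0.96 for Pmel, −0.91 for Tyrp1, −0.80 for Dct, −0.31 for Tyr and −0.15 for Mlana. The fit takes the spread of the single array to equal that of the other groups. At 1 week 0 of 9 passed (background 0%; 0 members and 677 of all genes at an unadjusted p under 0.05), and all 9 differences were below 0. Dct averaged 8.56 ± 1.27 at 1 week and 9.89 ± 1.35 in controls (SD, n = 3 each), a difference of −1.33 with a 95% interval that included 0 (−0.64 without control replicate 2). The 1-week values of all 9 genes overlapped with those of the controls, while groups were apart for 2.84% of all genes that were lower and 4.63% that were higher, and for all 5 pigment genes and Kit replicate 1 was the highest 1-week array.

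At 4 weeks Kitl fell, and it was the 1 member of 9 that passed, against 3.24% of all genes in either direction and 0.798% lower. Kitl averaged 7.27 ± 0.80 at 4 weeks and 9.37 ± 0.34 in controls (SD, n = 3 each), a difference of −2.09 ± 0.48 or 4.27-fold (limma adjusted p = 0.0370). The groups did not overlap in its main probe set, as for 8.12% of all genes that were lower. This call was lost without any 1 of the 3 controls or without 4-week replicate 1 or 2 (adjusted p between 0.0678 and 0.124), and with the mean of the 4 probe sets, where the difference was −1.22 (adjusted p = 0.106). Tyrp1 averaged 6.63 ± 1.81 at 4 weeks and 9.21 ± 1.18 in controls, a difference of −2.58 ± 0.99 that did not pass (adjusted p = 0.220). Dct differed by −1.72 (0.379), Mlana by −1.60 (0.277), Tyr by −1.57 (0.260), Pmel by −1.50 (0.347) and Kit by −0.98 (0.341), with adjusted p in parentheses. For each of these 6 genes 4-week replicate 3 lay above at least 1 control array. Between same-numbered arrays, which deviated together, Dct, Tyrp1, Tyr, Mlana and Kit were lower at 4 weeks in 3 of 3 pairs and Pmel in 2 of 3. Over the 6 genes the 4-week differences lay between −1.93 and −0.43 without control replicate 2, and between −3.59 and −1.17 without 4-week replicate 3. They lay between −3.07 and −1.34 without control replicate 1, and between −1.83 and −0.99 without 4-week replicate 2. Mitf was higher by 0.21 (95% interval −0.60 to 1.03) and Sox10 lower by −0.18 (interval −0.84 to 0.48).

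At 10 weeks the pigment genes and Kit were 3.71-fold to 8.69-fold below control in value, and 0 of 9 members passed, against 0.7% of all genes. Of the members, 6 had an unadjusted p under 0.05 and all 6 were lower, against 4.49% of all genes that were lower at that p. These 6 genes varied together and were chosen with earlier results known, so they are not 6 separate results. Dct averaged 6.88 ± 1.46 at 10 weeks (SD, n = 2) and 9.89 ± 1.35 in controls (SD, n = 3), a difference of −3.01 ± 0.94 or 8.08-fold (adjusted p = 0.187). Tyrp1 differed by −3.12 ± 1.10 (adjusted p = 0.263), Pmel by −2.44 ± 0.79 (0.205), Tyr by −2.33 ± 0.72 (0.178), Mlana by −1.97 ± 0.75 (0.317) and Kit by −1.89 ± 0.51 (0.125). For these 6 genes and Kitl, 7 of 9 members, both 10-week arrays lay below all controls, as 20.5% of all genes did. Mitf differed by 0.17 (95% interval −0.74 to 1.09), Sox10 by −0.25 (interval −0.99 to 0.48) and Kitl by −0.82 (adjusted p = 0.708). The median difference was −1.97 over the 9 members and −0.06 over all genes tested. With array weights, an alternative that gives less weight to arrays far from their group, 6 of 9 passed (Dct, Tyrp1, Tyr, Pmel, Mlana and Kit), as did 10.8% of all genes. The differences of these 6 genes were between −2.46 and −1.21 without control replicate 2, and between −3.67 and −2.25 without control replicate 1. They were between −2.18 and −1.66 without 10-week replicate 1 and between −4.06 and −2.13 without 10-week replicate 2. That of Dct was 3.95-fold without 10-week replicate 1 and 16.5-fold without 10-week replicate 2.

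With β-catenin loss added to SmoM2, all 9 members were below IFE control in value by their main probe set, and 0 of 9 passed (background 0.371%). For Kitl the direction depended on the probe set: 2 of 4 were below control, with differences of −0.59 to 0.41. Dct averaged 5.69 ± 0.33 with β-catenin loss (SD, n = 2) and 9.89 ± 1.35 in controls (SD, n = 3), a difference of −4.20 ± 0.94 or 18.3-fold (adjusted p = 0.0932). Tyrp1 differed by −4.50 ± 1.10 (adjusted p = 0.105), Pmel by −2.92 ± 0.79 (0.129), Mlana by −2.35 ± 0.75 (0.180), Tyr by −2.34 ± 0.72 (0.163) and Kit by −2.05 ± 0.51 (0.108). These 6 members had an unadjusted p under 0.05, as 2089 of all genes did. Both β-catenin loss arrays lay below all controls in 7 of 9 members, Sox10 being the other one, against 20.7% of all genes. Dct and Tyrp1 passed where only the 2 groups compared were fitted (adjusted p = 0.0412 and 0.0232), as 0.504% of all genes did. Without control replicate 2 the differences of the 6 genes were between −3.85 and −1.50, and that of Dct was 11.3-fold. Without control replicate 1 they were between −5.0 and −2.41, and that of Dct was 28.8-fold.

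Against SmoM2 alone at 4 weeks, β-catenin loss left the pigment genes lower in value and Kitl higher, with 0 of 9 members past the threshold (background 2.23%). Dct averaged 5.69 ± 0.33 with β-catenin loss (SD, n = 2) and 8.17 ± 1.21 with SmoM2 alone (SD, n = 3), a difference of −2.48 ± 0.94 (adjusted p = 0.199). Tyrp1 differed by −1.92 (0.416), Pmel by −1.42 (0.396), Kit by −1.07 (0.309), Tyr by −0.77 (0.635) and Mlana by −0.75 (0.666), adjusted p in parentheses. Mitf differed by −0.64 (0.486) and Sox10 by −0.48 (0.516). Groups did not overlap for 6 lower members, Dct, Tyrp1, Tyr, Pmel, Kit and Mitf (17.6% of all genes), and for 1 higher member, Kitl (11.1%). Without 4-week replicate 3 the differences of the 5 pigment genes and Kit were between −1.80 and −0.15, and without 4-week replicate 2 between −2.96 and −0.93. Kitl averaged 8.77 ± 0.51 with β-catenin loss and 7.27 ± 0.80 with SmoM2 alone, a difference of 1.50 ± 0.53 (adjusted p = 0.166). Dct and Kitl had an unadjusted p under 0.05, as 2454 of all genes did.

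Between stages of SmoM2 IFE, 0 of 9 members passed at 4 weeks against 1 week or at 10 weeks against 4 weeks (background 0% in both). In each, 1 member had an unadjusted p under 0.05, as 688 of all genes did in the first comparison and 893 in the second, and it was Kitl both times. Kitl was lower by −1.50 at 4 weeks against 1 week and higher by 1.27 ± 0.53 at 10 weeks against 4 weeks (adjusted p = 0.794). Over the 4 Kitl probe sets the latter difference ran from −0.18 to 1.27, with 1 below 0. Dct differed by −1.30 (95% interval −3.36 to 0.76) and Kit by −0.92 (interval −2.02 to 0.19) at 10 weeks against 4 weeks.

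**Figure D2:**
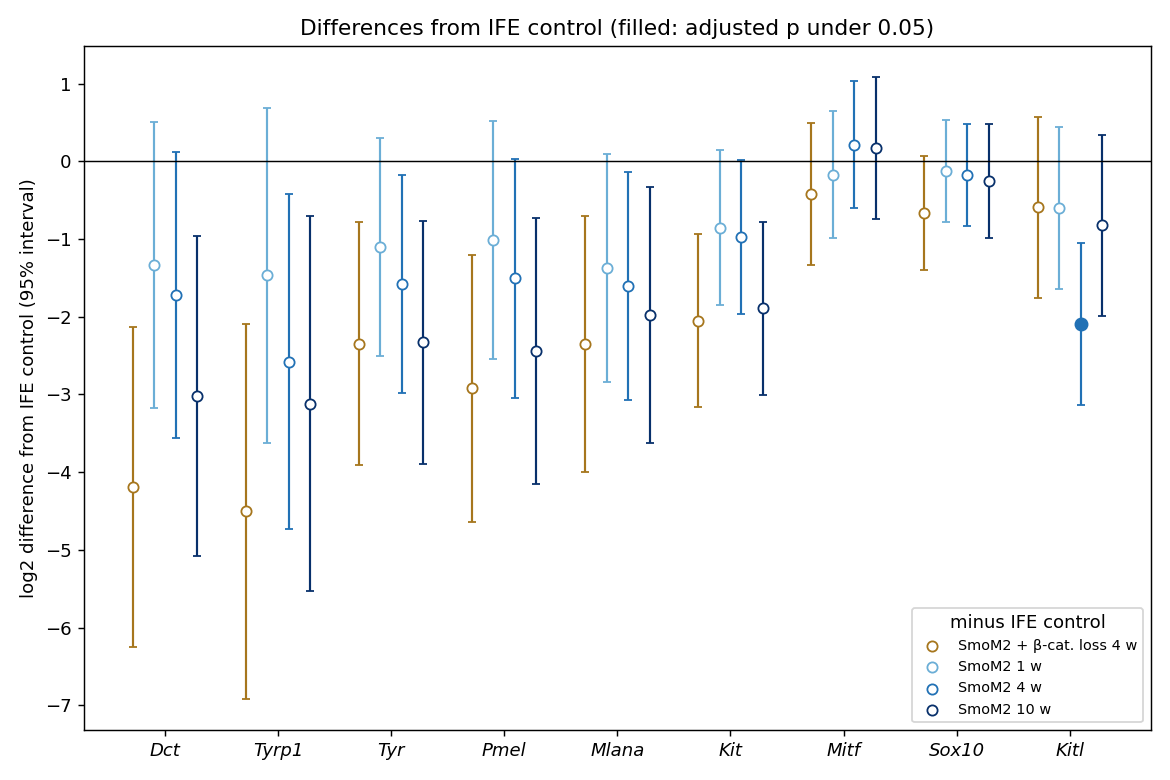
Log2 difference from IFE control (vertical axis) of each gene with its 95% interval, for β-catenin loss and for SmoM2 at 1, 4 and 10 weeks; filled points had a limma adjusted p under 0.05. Kitl at 4 weeks, at −2.09, is the filled point, and the intervals of Mitf and Sox10 include 0 in all 4 comparisons.

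In the bulge, with 1 array per group and no test between these arrays, Kit stood apart. It read 5.63 in bulge SmoM2 cells and 3.86 in the array labelled bulge control, a difference of 1.77, and was the 1 member of 9 that differed by at least 1 log2 unit. Of all genes, 4.35% were higher and 2.59% lower by that much. With the mean of its 2 probe sets Kit no longer reached 1 log2 unit. Kitl differed by −0.96, Dct by 0.76, Tyrp1 by 0.45, Tyr by 0.33, Mlana by 0.14, Pmel by 0.07, Sox10 by 0.01 and Mitf by −0.08. The bulge difference minus the IFE difference at 4 weeks was 3.03 ± 1.97 for Tyrp1 and 2.75 ± 0.91 for Kit (limma adjusted p = 0.385). In that contrast 0 of 9 members passed (background 0%; Kit and 1020 of all genes at an unadjusted p under 0.05). Its spread comes from the IFE groups alone. Gli1 and Ptch1 were high in both bulge arrays, while Hhip was lower in the array labelled bulge control (7.67 against 10.64). The state of that array is thus unclear, and the contrast cannot be read as a SmoM2 effect in the bulge. Against IFE controls, the array labelled bulge control was lower by at least 1 log2 unit in 6 of 9 members, as were 5.68% of all genes. These were Tyrp1 (−3.52), Dct (−3.32), Pmel (−2.68), Tyr (−2.30), Mlana (−2.27) and Kit (−2.21), each below the lowest of the 3 controls. Kitl differed by −0.04, Mitf by −0.19 and Sox10 by −0.50. The Cre driver differs between these groups, and the hedgehog targets differ as given above.

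A pigment index, the mean log2 signal of Dct, Tyrp1, Tyr, Pmel and Mlana, orders the arrays. The groups ran, lowest first, β-catenin loss at 5.28 ± 0.19 (SD, n = 2), the array labelled bulge control at 5.72, 10 weeks at 5.97 ± 0.88 (n = 2), bulge SmoM2 at 6.08, 4 weeks at 6.75 ± 1.17 (n = 3), 1 week at 7.28 ± 1.10 (n = 3), 3 days at 7.92 and control at 8.54 ± 1.29 (n = 3). Among the groups with 2 or more arrays, neighbours in this order differed by less than the larger of their SDs. By array, the index read 5.14 and 5.41 with β-catenin loss. In the time course it read 7.41, 9.95 and 8.26 in controls, 7.92 at 3 days, 8.51, 6.37 and 6.97 at 1 week, 6.16, 5.98 and 8.10 at 4 weeks, and 5.34 and 6.59 at 10 weeks. Control replicate 1 therefore ranked below 1-week replicate 1, 4-week replicate 3 and the 3-day array, and control replicate 2 ranked highest. Control replicate 2 was also the highest array for 8 of 9 members, Kitl being the other, and for 13 of 20 member probe sets.

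Spread between replicates was large for the pigment genes. The pooled SD within IFE groups was 1.44 for Tyrp1, higher than that of 99.6% of genes tested, 1.23 for Dct (99.1%), 1.02 for Pmel (98.1%), 0.97 for Mlana (97.7%) and 0.92 for Tyr (97.1%). The median gene had 0.32. Mitf had 0.51 (81.5%), Sox10 0.39 (65.8%), Kit 0.64 (89.6%) and Kitl 0.67 (91.2%). The pigment genes varied together: over the 14 IFE arrays the 10 pairs of the 5 genes had Pearson r between 0.897 and 0.976, and between 0.834 and 0.977 after each group's mean was subtracted (13 arrays). To the index, Kit had r = 0.91 (0.90 after subtraction), Kitl 0.41 (0.33), Sox10 0.38 (0.05) and Mitf 0.22 (0.31). The arrays share their normalization and control replicate 2 is far from the rest, so these values are descriptions.

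Among the other genes tested, those most like the index over the 14 IFE arrays by Pearson r included further pigment cell genes. The 12 highest were Oca2 (0.978), Mcoln3 (0.955), Ednrb (0.953), Ptgds (0.930), Mc1r (0.912), Trpm1 (0.906), Plxnc1 (0.879), Slc45a2 (0.869), Mlph (0.854), Stc1 (0.850), Syt4 (0.843) and Krt84 (0.823). Of these 12, 6 were on the lists of other pigment cell genes, which had 28 genes tested: Oca2 and Slc45a2 encode melanosome transporters, Mlph a melanosome transport protein, Mc1r the melanocortin receptor, Ednrb an endothelin receptor and Trpm1 an ion channel. After subtraction of group means the 8 highest were Oca2 (0.970), Ednrb (0.951), Mcoln3 (0.937), Magi1 (0.921), Fn1 (0.893), Car6 (0.889), Larp1 (0.886) and Ptgds (0.857). Oca2 averaged 4.36 ± 0.28 at 10 weeks (SD, n = 2) and 6.27 ± 0.98 in controls (SD, n = 3), a difference of −1.91 ± 0.57 that did not pass (adjusted p = 0.167). At 10 weeks Ednrb differed by −2.57 ± 0.83 (adjusted p = 0.208), Trpm1 by −1.0 ± 0.27 (0.124), Mc1r by −1.21 (0.381) and Slc45a2 by −0.84 (0.263). Oca2 and these genes were picked for likeness to the index, which itself was lower at 10 weeks by −2.58. Their differences are therefore no separate evidence.

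**Figure D3:**
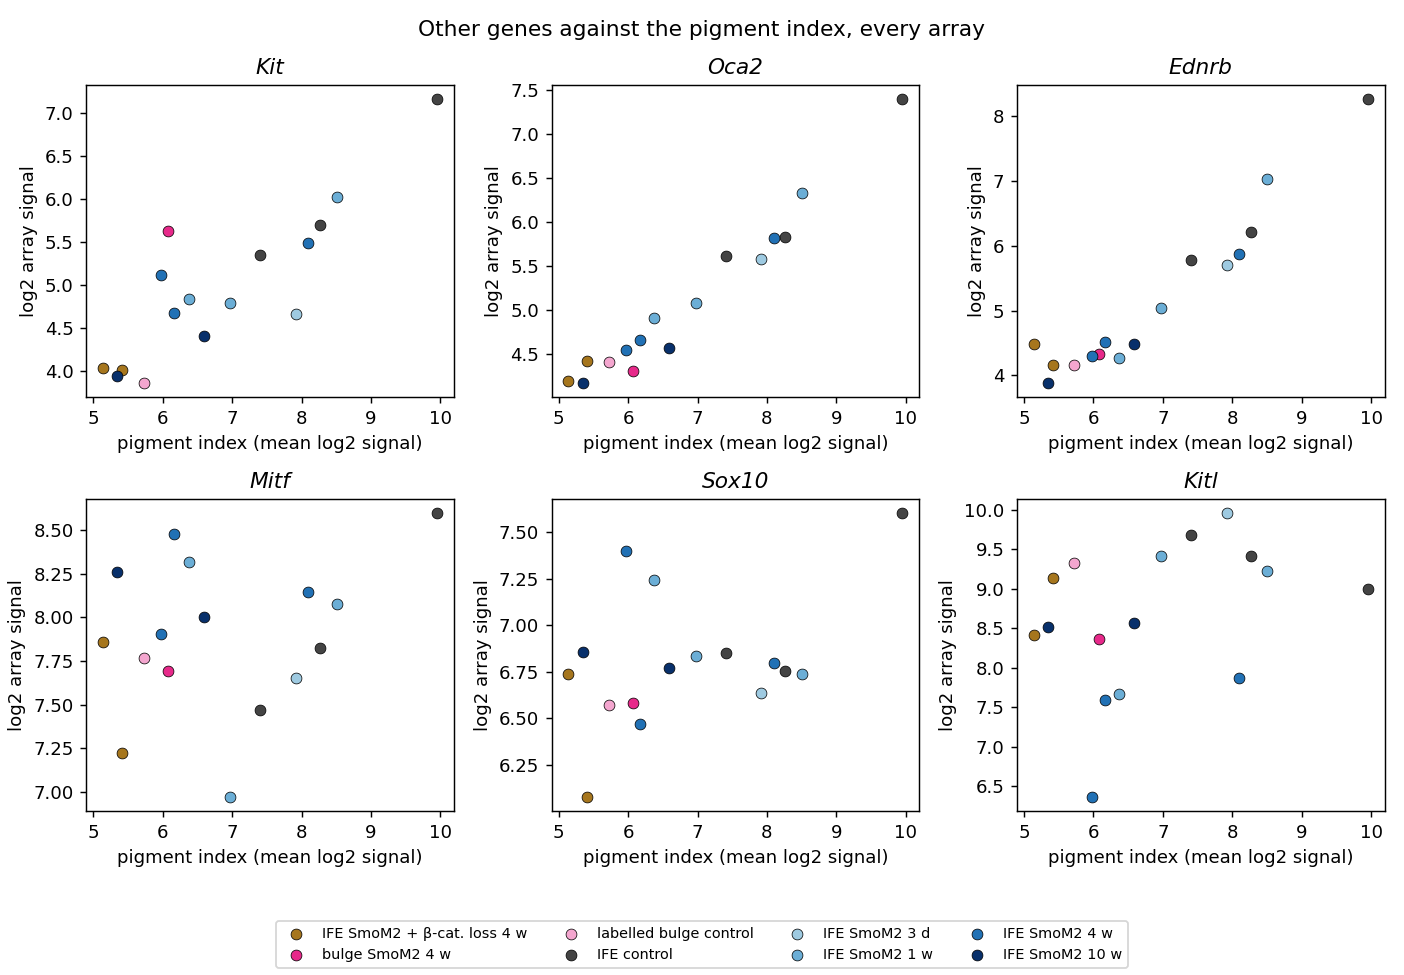
Log2 array signal of 6 genes (vertical axes) against the pigment index (horizontal axes), 1 point per array, coloured by group. Kit, Oca2 and Ednrb climb with the index, with bulge SmoM2 off the line for Kit at 5.63, while Mitf, Sox10 and Kitl scatter.

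Of the other genes of melanosomes and pigment, 15 were tested and 1 passed, at 4 weeks. Of all genes, 3.24% passed there in either direction and 0.798% as lower. Gpnmb, a melanosome glycoprotein also made by macrophages, fell by 3.14 (SE 0.68, adjusted p = 0.0326), at 6.54 ± 0.66 at 4 weeks and 9.68 ± 1.05 in controls (SD, n = 3 each). At 10 weeks 0 of 15 passed and Gpnmb differed by −2.77 (adjusted p = 0.133). The list's median difference was −0.44 at 4 weeks and −0.36 at 10 weeks, and 0.12 with β-catenin loss against control. At 10 weeks 10 of the 15 were below 0. Of 13 receptors and transcription factors, 9 were below 0 at 10 weeks, with a list median of −0.24. Among these 13 only Tbx2, a T-box factor, had an adjusted p under the threshold, with β-catenin loss against control and against SmoM2 alone. Tbx2 read 5.01 and 5.06 with β-catenin loss, just above the low signal line, and 3.89 to 4.41 in the other 14 arrays, below it. Tbx2 passed the filter only through the group where it is high, so this is not read as a result and no size or p-value is given.

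Among 8 factors from skin cells that act on melanocytes, other than Kitl, Edn1 rose at 4 weeks, when 3.24% of all genes passed. Edn1 encodes endothelin 1, a ligand of Ednrb. It averaged 8.84 ± 0.63 at 4 weeks and 5.43 ± 0.39 in controls (SD, n = 3 each), a difference of 3.41 ± 0.52 (adjusted p = 0.0101). At 10 weeks it differed by 2.71 ± 0.58 (0.0635) and with β-catenin loss by 1.95 (0.151), both against control. Adam10, a protease that sheds membrane proteins, was the other of the 8 that passed in any comparison, and fell with β-catenin loss against SmoM2 alone by 1.10 (adjusted p = 0.0450). In that comparison 2.23% of all genes passed.

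Keratins of the tail scales, where the interfollicular melanocytes of tail skin lie, were measured beside the members. Krt84 fell at 4 weeks and at 10 weeks against control, by 4.16 (SE 0.74, adjusted p = 0.0200) and by 5.25 (SE 0.83, adjusted p = 0.0187), and with β-catenin loss by 6.15 (SE 0.83, adjusted p = 0.0310). Krt36 fell in the same 3 comparisons, by 4.16 (adjusted p = 0.0308), 5.03 (0.0475) and 6.11 (0.0346). Of the 4 scale keratins these 2 passed against control, and Krt35 fell with β-catenin loss against SmoM2 alone by 1.57 (0.0385). Of all genes, 3.24% passed at 4 weeks, 0.7% at 10 weeks and 0.371% with β-catenin loss, each against control. Against SmoM2 alone 2.23% passed with β-catenin loss. Krt84 had a Pearson r of 0.823 to the index over the 14 IFE arrays, but did not follow it in every array. Bulge SmoM2 cells had 13.37 with an index of 6.08. In the IFE, 1-week replicate 3 had 12.79 with an index of 6.97, while 1-week replicate 1 had 10.93 with an index of 8.51. The part of scale cell content in the members' differences was not tested.

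**Figure D4:**
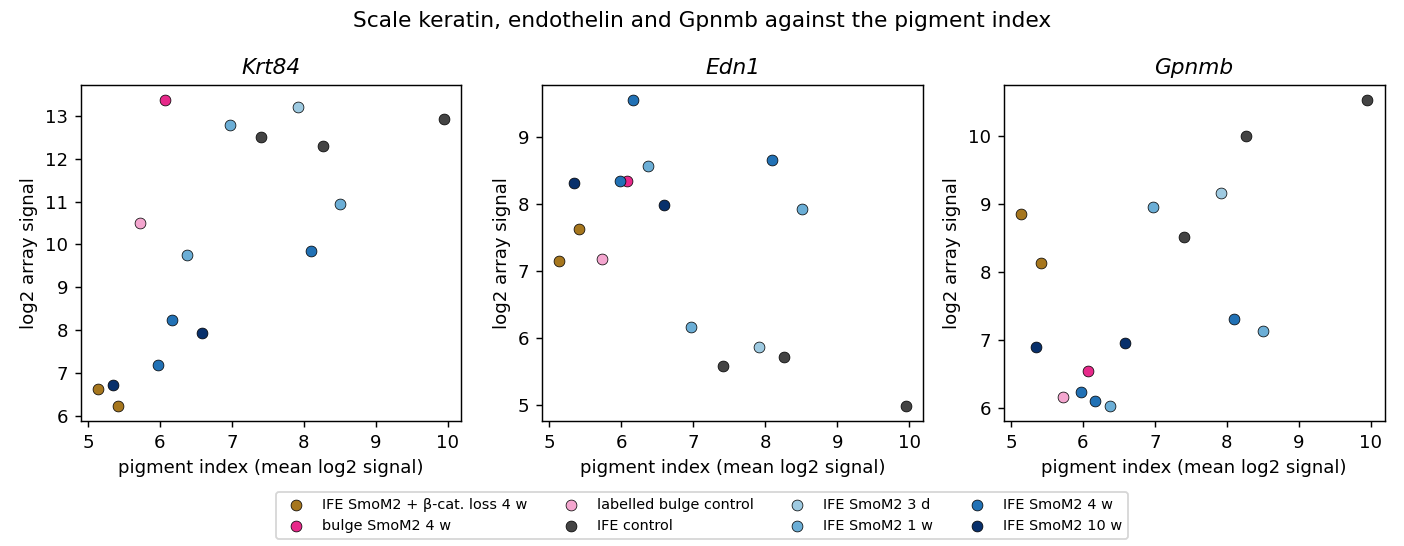
Log2 array signal of Krt84, Edn1 and Gpnmb (vertical axes) against the pigment index (horizontal axes), 1 point per array, coloured by group. Krt84 is lowest in the β-catenin loss arrays and at 13.37 in bulge SmoM2 cells, and Edn1 is lowest in control replicate 2, which has the highest index.

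Markers of other cells that use these genes or share the tissue were read too. Against control, 3.24% of all genes passed at 4 weeks and 0.7% at 10 weeks. Mast cells also carry Kit: 3 of 9 mast cell markers passed the filter on low values and 0 passed the test in any comparison, with a mean signal of 5.48 to 5.54 at 10 weeks and 5.59 to 6.01 in controls. Schwann cells also carry Sox10: of 4 markers tested, Pmp22, a myelin gene also active in epithelia, fell at 4 weeks by 1.94 (SE 0.36, adjusted p = 0.0240), and the mean signal was 7.40 to 7.85 at 4 weeks and 8.02 to 8.45 in controls. The 5 keratinocyte genes had 0 calls and a mean of 12.28 to 12.29 at 10 weeks and 12.57 to 12.64 in controls. The 5 Langerhans and T cell genes had 0 calls and a mean of 5.69 to 5.70 at 10 weeks and 5.58 to 6.64 in controls. Of 5 fibroblast genes Dcn rose at 4 weeks by 2.59 (adjusted p = 0.0430), with a list mean of 6.40 to 6.78 at 4 weeks and 5.54 to 6.11 in controls. Endothelial genes (2 tested) and Merkel cell genes (2 tested) had 0 calls. Of 4 bulge genes 2, Lhx2 and Lgr5, rose at 4 and 10 weeks. The other 2 did not pass: Krt15 differed by −0.36 at 4 weeks and −1.05 at 10 weeks (adjusted p = 0.118), and Cd34 by 0.14 and −0.041. The part of each of these in the members' differences was not tested.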

How the data were processed

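RNA of 16 sorted cell samples was amplified by 3′ in vitro transcription and measured on Affymetrix arrays, per the labels' protocols. The authors deposited log2 signals of 45101 probe sets. R 2.14.0 is the tool listed in the submitters' processing notes. How probe sets were background-corrected, normalized and summarised is not given in the sources used here. No further normalization was applied. Probe sets were named from the array annotation: 34958 had 1 gene, 932 several and 9211 none, and 34754 matched the RefSeq gene table by identifier. The probe set with the highest mean signal stood for each gene, which was tested if above the array's 40th percentile in at least 2 of 16 arrays, which left 14286 genes.

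Group means were fitted over the 14 IFE arrays with limma 3.58.1 in R 4.3.3, with empirical Bayes moderation, Benjamini-Hochberg adjustment over all genes tested and a threshold of 0.05. The bulge contrast used all 16 arrays. The fit was tested on simulated data. The number of arrays limits the precision. Groups came from the labels. Same-numbered control, 1-week and 4-week arrays deviated together (r between 0.34 and 0.70), so these numbers pair those samples. Alternatives were both replicate blocks, quantile normalization, 2 other filters, other uses of probe sets, other sets of arrays, array weights and each replicate left out. The members and lists were chosen with earlier results of these data known. All 9 members are named, with list genes past the threshold or else most like the index. Other genes of the lists are not reported here.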

Additional observations from a re-analysis of the deposited data

How the results depend on the processing

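Over 1206 alternative values of the members' differences, 1156 kept their direction and their side of the threshold, 33 changed sign, 9 passed only in the alternative and 8 no longer passed, and the cause was not tested. Only 1 main difference passed, so most values could hardly change side. That call, Kitl at 4 weeks against control, held in 8 of 16 alternatives. At 4 weeks, 10 weeks and with β-catenin loss against control, Dct, Tyrp1, Tyr, Pmel, Mlana and Kit stayed below 0 in every alternative run. Members called at 4 weeks were 1 in the main analysis, 0 with no filter, with the mean of probe sets and with every probe set tested, and 0 to 1 with each replicate left out. At 10 weeks 6 were called with array weights, where Dct, Tyrp1, Tyr, Pmel, Mlana and Kit had adjusted p of 0.0400, 0.0409, 0.0118, 0.0229, 0.0266 and 0.00647. With only the groups compared, 2 were called for β-catenin loss against control. For β-catenin loss against SmoM2 alone 1 was called with the replicate block by title number, Kitl at 1.72 (adjusted p = 0.0477). Bulge SmoM2 and the array labelled bulge control differed by at least 1 log2 unit upward in 0 members with the mean of probe sets. With the replicate block, the call of Kitl at 4 weeks held (adjusted p = 0.0197 by title and 0.0212 by description number), and no other call changed among the paired groups. The numbers did not pair β-catenin loss or 10-week arrays.

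Sign changes ran up to 0.61 on the log2 scale. At 3 days the block by title number gave Tyr 0.015 and Mlana 0.29, and the block by description number could give no value there. At 10 weeks against 4 weeks Mitf was 0.027 with the block by description number and 0.092 with the mean of probe sets. With each replicate left out, the 3-day differences ran between −0.90 and 0.41 for Tyr, −0.82 and 0.61 for Mlana, and −0.56 and 0.0050 for Mitf. At 1 week they ran between −0.44 and 0.24 for Mitf and −0.29 and 0.14 for Sox10. At 4 weeks they ran between −0.033 and 0.53 for Mitf and −0.43 and 0.087 for Sox10. At 10 weeks they ran between −0.076 and 0.49 for Mitf and −0.41 and 0.011 for Sox10. For 4 weeks against 1 week the ranges were −1.06 to 0.33 for Dct, −1.02 to 0.20 for Pmel, −0.83 to 0.19 for Mlana, −0.021 to 0.65 for Mitf, −0.31 to 0.16 for Sox10 and −0.34 to 0.27 for Kit. For 10 weeks against 4 weeks they were −1.48 to 0.47 for Tyrp1, −0.79 to 0.23 for Mlana, −0.18 to 0.11 for Mitf and −0.28 to 0.18 for Sox10. The bulge contrast of Sox10 ran between −0.076 and 0.45.

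Counts over all genes moved more. At 4 weeks 463 genes passed, 873 with the block by title number and 13 without control replicate 2. At 10 weeks 100 passed, 1545 with array weights, 738 with only the groups compared, and 0 without 10-week replicate 1. With β-catenin loss against control 53 passed, 169 with the block by title number and 1 without control replicate 3. Against SmoM2 alone 318 passed, 1347 with that block, 17 with only the groups compared and 2 without β-catenin loss replicate 1. Where 0 genes passed, alternatives gave up to 50 at 1 week, 24 for 4 weeks against 1 week, 14 for 10 weeks against 4 weeks, 120 for the bulge contrast and 1 at 3 days. Kit, Mlana and Tyr lay near the floor of the signal in several arrays, which limits how low their values can go.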
